A study of Saccharomyces cerevisiae with 24 samples.

Results

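The 8 genes described here are those of pyrimidine synthesis in budding yeast, Saccharomyces cerevisiae, with the gene of their regulator. They are URA2 (YJL130C), URA4 (YLR420W), URA1 (YKL216W), URA5 (YML106W), URA10 (YMR271C) and URA3 (YEL021W) of the pathway itself, the uracil transporter gene FUR4 (YBR021W), and PPR1 (YLR014C), which encodes the transcription factor of the pathway. They were chosen by name, as 8 of the 12289 features of the deposited count table, and all 8 passed the filter on low counts that kept 11776 features for testing.

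Cells make the pyrimidine nucleotide UMP from glutamine and aspartate. Ura2 joins the first steps of the route, carbamoyl phosphate synthesis and aspartate transcarbamylation, in one protein that the end product UTP inhibits. Ura4 (dihydroorotase), Ura1 (dihydroorotate dehydrogenase), the isozymes Ura5 and Ura10 (orotate phosphoribosyltransferases) and Ura3 (orotidine 5-phosphate decarboxylase) carry out the later steps. Fur4 brings uracil into the cell. Ppr1 is a zinc cluster activator that responds to pathway intermediates, and URA1, URA3, URA4 and URA10 are textbook targets of it. The PPR1 mRNA itself is a textbook example of a short-lived message.

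Poly(A) RNA was sequenced from 3 strains. They were dcp2-ideg, with an inducible degron for DCP2, lsm1-ideg, with an inducible degron for LSM1, and wt, with no degron named. Library names of the wt samples carry the letters BY. A protein fused to a degron is destroyed by the cell once the inducing compound is given. Dcp2 is the enzyme that removes the 5' cap of mRNAs, which opens them to decay, and Lsm1 is a subunit of a ring that promotes this step. Cultures in rich YPD medium were sampled 60 min after the addition of 100 µM auxin (IAA) and 1 µM beta-oestradiol at 30 °C (T60), or without the addition (T0). All 6 groups (dcp2-ideg T60, dcp2-ideg T0, lsm1-ideg T60, lsm1-ideg T0, wt T60 and wt T0) had 4 libraries, and wt cells received the same compounds as the degron strains. The labels give no promoter for the degron system, no clone number and no URA3 allele for any strain, and they do not say whether replicates were separate cultures, so p-values measure the spread between these samples only.

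Libraries held 41.8 to 83.9 M counts (M for mega). TMM factors, which rescale library sizes so that most features do not move, were 1.29 to 1.49 in dcp2-ideg T60 and 0.859 to 1.01 in the other libraries. Levels are given as CPM, counts scaled with these factors to a library of 1 M, and every change is relative to the other poly(A) RNA of a library. In such bulk samples fewer cells with an mRNA and less of it per cell cannot be told apart. As a check of the targeted genes, DCP2 mRNA averaged 68.1 ± 13.2 CPM in dcp2-ideg T60 and 124 ± 29.3 CPM in dcp2-ideg T0 (SD, n = 4 each), and LSM1 mRNA averaged 102 ± 2.03 CPM in lsm1-ideg T0 and 154 ± 6.25 CPM in wt T0. A degron acts on the protein, so that these mRNA values do not check its loss. Group means of the a-cell genes STE2, BAR1 and MFA2 lay between 60.3 and 666 CPM. Those of the alpha-cell genes were 0.196 to 0.367 CPM for MF(ALPHA)1, 3.08 to 5.29 CPM for STE3 and 26.5 to 62.8 CPM for SAG1. Beyond wt, SAG1 rose in dcp2-ideg by 1.21 ± 0.3 on the log2 scale (edgeR adjusted p = 0.00279). By the same test BAR1 (-1.27 ± 0.113, adjusted p = 1.56e-08) and STE2 (-0.88 ± 0.138, adjusted p = 2.46e-05) fell. STE3 (0.36 ± 0.281), MF(ALPHA)1 (-0.21 ± 0.769) and MFA2 (-0.58 ± 0.374) did not pass it (adjusted p = 0.344, 0.869 and 0.248).

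One library stood apart before any test. In dcp2-ideg T0, replicate 4 had 184 CPM of URA2 and 12.4 CPM of URA3, below the other 3 libraries of its group, and 521 CPM of URA4 and 2180 CPM of URA1, above them. Replicate 4 of dcp2-ideg T60 likewise had the group's lowest URA2 (93.4 CPM) and its highest URA10 (62.9 CPM). Some results of the 8 genes in dcp2-ideg are therefore also given without both of these libraries, an alternative chosen after the data were seen.

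The upstream sequences that carry a match to the core of the Ppr1 site are shown first, because Ppr1 is the regulator among the 8 gene products. Any part of these matches in the levels was not tested. The motif searched was CGGNNNNNNCCG, which reads the same on both strands. It was looked for in the 250 bases before each feature start, where 90 of 5783 protein-coding features (1.56%) held it. Among the 8 genes it was found in URA1, with 2 matches, and in URA3 and URA4, with 1 match each. No match to these letters lay in that window, or in the 250 bases before the start codon, for URA2, URA5, URA10, FUR4 or PPR1. The stretches below run from 170 to 31 bases before the feature start on the plus strand, from the R64 reference of RefSeq, 5' to 3', with the matches in capitals.
URA4, chrXII:963537-963676: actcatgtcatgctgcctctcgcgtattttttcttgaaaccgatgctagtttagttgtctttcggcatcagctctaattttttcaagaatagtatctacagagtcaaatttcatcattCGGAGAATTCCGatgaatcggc
URA1, chrXI:24974-25113: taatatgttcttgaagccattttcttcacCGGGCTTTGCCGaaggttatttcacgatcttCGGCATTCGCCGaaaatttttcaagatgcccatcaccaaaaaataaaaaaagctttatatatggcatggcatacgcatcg
URA3, chrV:115951-116090: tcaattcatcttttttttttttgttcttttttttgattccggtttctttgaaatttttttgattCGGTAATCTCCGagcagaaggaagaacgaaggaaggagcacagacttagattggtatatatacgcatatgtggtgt

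The URA1 matches lay 141 to 130 and 110 to 99 bases before the feature start. Those of URA3 and URA4 lay 106 to 95 and 52 to 41 bases before it. The longer form TTCGGNNNNNNCCGAA was found in 1 of 5783 windows (0.0173%), that of URA1, where it contains the match nearer to the gene. A match is a description of letters and not a measured binding site.

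All positions are those of the table on the sacCer3 build, and the features extend past the coding sequence at both ends. URA2 is on chromosome X (165599 to 172959, minus strand) and URA4 on chromosome XII (963707 to 964963, plus strand). URA1 is on chromosome XI (25144 to 26456, plus) and URA3 on chromosome V (116121 to 117049, plus). URA5 and URA10 are both on chromosome XIII, at 56473 to 57625 (plus) and 806742 to 808118 (minus). FUR4 is on chromosome II (281344 to 283512, plus) and PPR1 on chromosome XII (171998 to 175022, minus). The distance from feature start to start codon was 592 bases in URA2, 570 in URA10 and 300 in URA5, and it was between 40 and 99 bases in the other 5 genes.

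Per kilobase of feature, the scale on which genes can be compared, the wt T0 libraries averaged 545 ± 58.9 CPM for URA1, 298 ± 23.3 for URA5 and 168 ± 13.6 for URA4 (SD, n = 4). URA2 followed with 62.5 ± 4.06 CPM per kilobase, FUR4 with 22.1 ± 1.75 and PPR1 with 14.7 ± 1.74. The lowest were URA10 with 8.6 ± 1.59 and URA3 with 0.478 ± 0.169 CPM per kilobase. In dcp2-ideg T60 the same order began with URA1 (480 ± 84.8), URA5 (172 ± 14.1) and URA4 (138 ± 26.7), and the libraries of the last 2 of these overlapped. There URA10, at 35.6 ± 6.77 CPM per kilobase, stood above URA2 (24.5 ± 8.53), PPR1 (14.2 ± 2.45), FUR4 (6.77 ± 0.882) and URA3 (6 ± 1.11). By group means URA10 was thus lowest but one in wt T0 and next after URA4 in dcp2-ideg T60, where its libraries overlapped those of URA2.

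**Figure D1:**
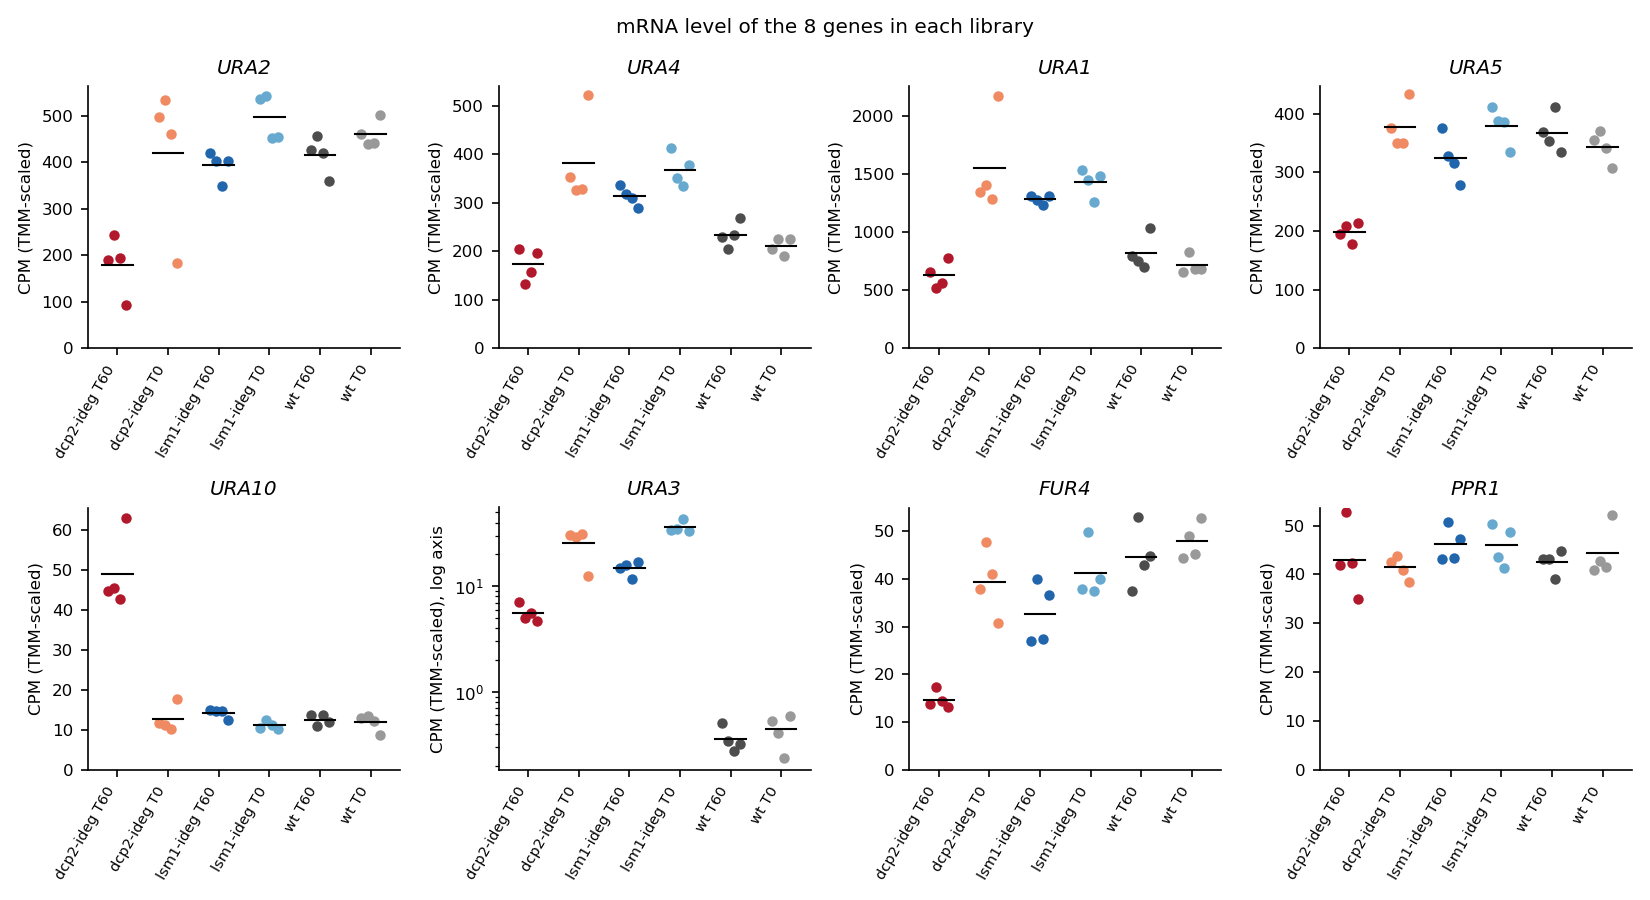
CPM (TMM-scaled) of each gene in each of the 24 libraries, by group; points are libraries, lines are group means, and the URA3 axis is logarithmic. URA10 in dcp2-ideg T60 (42.8 to 62.9 CPM) lies above every other group, 6 other genes are lowest or, for URA3, lowest outside wt in dcp2-ideg T60, and PPR1 spans 34.9 to 52.8 CPM over all libraries.

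Before the addition, URA1 and URA4 were higher in both degron strains than in wt. URA3, whose presence in the degron strains and near absence in wt were known when it was named, was far higher in both, and the other 5 genes did not pass the test in either strain. Of all features tested, 0.824% were called between dcp2-ideg and wt at T0 and 0.348% between lsm1-ideg and wt, and the 2 calls among the 7 genes other than URA3 are read against these shares. A call is a Benjamini-Hochberg adjusted p under 0.05 in edgeR's quasi-likelihood test over all 11776 features, and both comparisons use the same wt libraries. With URA3 included, the median log2 difference of the 8 genes was 0.12 for dcp2-ideg and 0.13 for lsm1-ideg, against 0.0043 and -0.0075 over all features.

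URA3, the last enzyme of UMP synthesis and a common selection marker in yeast, had 30.2, 29, 31.4 and 12.4 CPM in dcp2-ideg T0. It had 34.1, 34.8, 42.8 and 33.6 CPM in lsm1-ideg T0. In wt T0 it had 0.534, 0.411, 0.237 and 0.593 CPM, which were 12 to 33 counts a library. Every degron library lay far above every wt library. The fitted log2 difference from wt was 5.85 ± 0.293 (SE) for dcp2-ideg, a 57.8-fold difference, and 6.35 ± 0.298 for lsm1-ideg, an 81.5-fold difference. This contrast was known when the gene was chosen, so it is given as a description with no test. Other marker genes of laboratory strains did not follow it: MET17 had 0 counts in all 24 libraries, LEU2 had 0 to 19 counts, and group means of LYS2 were between 87.7 and 149 CPM. Those of HIS3 were 48.2 to 69.2 CPM, those of TRP1 52.9 to 75.6 CPM and those of ADE2 81.7 to 144 CPM. None of LYS2, HIS3, TRP1 and ADE2 was called against wt at T0 in either degron strain (edgeR adjusted p of 0.327 or more). The labels name no marker for any strain, and counts from an introduced copy of the same sequence cannot be told apart from those of the locus on chromosome V.

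URA1, which oxidises dihydroorotate to orotate, had 1350, 1410, 1290 and 2180 CPM in dcp2-ideg T0, against 661, 830, 683 and 687 CPM in wt T0. In lsm1-ideg T0 its values were 1540, 1450, 1260 and 1490 CPM. All degron libraries exceeded all wt libraries, by 1.12 ± 0.153 on the log2 scale in dcp2-ideg (adjusted p = 0.000101) and by 1.00 ± 0.152 in lsm1-ideg (adjusted p = 0.000689). Its neighbour in the pathway, URA4, which closes the dihydroorotate ring, had 352, 327, 328 and 521 CPM in dcp2-ideg T0, against 204, 225, 190 and 225 CPM in wt T0. In lsm1-ideg T0 URA4 had 412, 350, 334 and 377 CPM. These groups did not overlap either, and the log2 differences from wt were 0.85 ± 0.143 (adjusted p = 0.00119) and 0.80 ± 0.143 (adjusted p = 0.00456). Without the replicate 4 libraries of dcp2-ideg the differences were 0.92 for URA1 (adjusted p = 1.3e-05) and 0.67 for URA4 (adjusted p = 0.00101). URA4 in dcp2-ideg lost its call when only the libraries of these 2 groups were fitted (0.84, adjusted p = 0.0668).

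The remaining pathway genes differed less at T0. For dcp2-ideg against wt the log2 differences were -0.14 ± 0.232 for URA2, 0.14 ± 0.107 for URA5 and 0.11 ± 0.163 for URA10 (adjusted p = 0.594 to 0.806). FUR4 and PPR1 stood at -0.28 ± 0.148 and -0.097 ± 0.112 (adjusted p = 0.441 and 0.717). In lsm1-ideg these 5 genes ranged between -0.22 (FUR4) and 0.14 (URA5), with adjusted p of 0.884 or more. The 95% intervals reached no further than -0.61 and 0.59 on the log2 scale in either strain, so differences up to about that size are not settled by these libraries.

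Between the degron strains at T0 none of the 8 genes was called, where 0.229% of all features were (27 by edgeR's quasi-likelihood test, 757 at an unadjusted p under 0.05, and 49 by DESeq2). The median difference of the 8 genes was -0.037, against 0.018 over all features. URA3 was furthest apart, at -0.50 ± 0.222 (adjusted p = 0.746, 95% interval -0.95 to -0.038), and it stood at -0.27 without the replicate 4 libraries. URA1 and URA4 differed by 0.12 ± 0.151 and 0.052 ± 0.142, with intervals of -0.19 to 0.43 and -0.24 to 0.34.

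**Figure D2:**
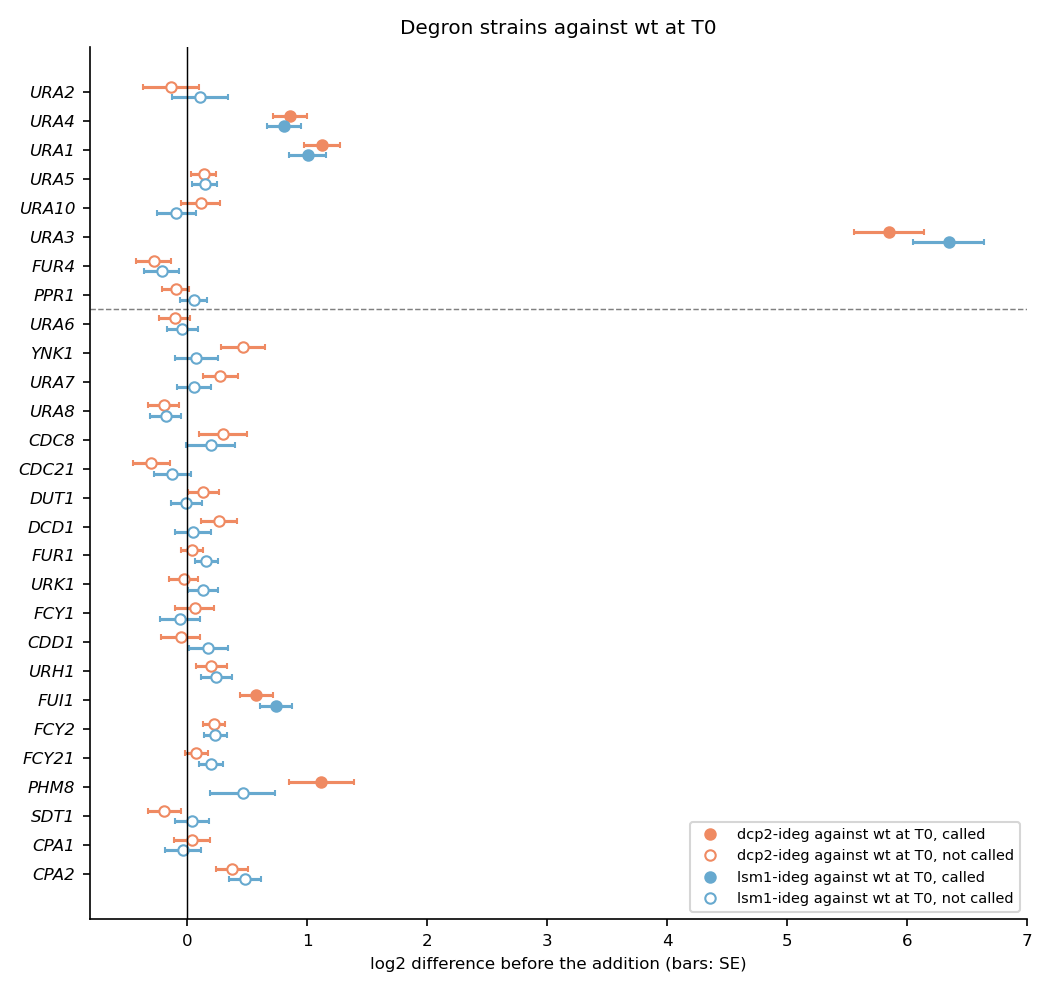
Log2 difference between each degron strain and wt at T0 (x axis, bars are SE) for the 8 genes, above the dashed line, and for 20 other genes of pyrimidine metabolism; filled points passed an adjusted p of 0.05. URA3 is drawn filled at 5.85 and 6.35, but it is a known difference and its fill is not to be read as a test. URA1 and URA4 stand between 0.80 and 1.12, and of the 20 other genes FUI1 alone is filled in both strains.

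After 60 min in dcp2-ideg, 6 of the 8 mRNAs fell and 1, URA10, rose, while PPR1 did not pass the test. This held both within the strain, where 51.8% of all features were called, and for the change beyond that of wt, where 34.4% were. The calls beyond wt over all features were 2176 higher and 1872 lower. The median log2 change of the 8 genes beyond wt was -1.18, against 0.07 over all features and -0.18 over 5752 protein-coding ones. In wt itself the addition moved none of the 8 genes past the test. There 0% of all features were called by edgeR, with 388 at an unadjusted p under 0.05 and 1 by DESeq2, and the log2 changes of the 8 genes in wt ran from -0.34 (URA3) to 0.20 (URA1).

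The library scaling sets where no change lies. With total counts in place of TMM factors, the median change beyond wt over all features was 0.57, and 90.1% of the called features were higher, against 53.8% with TMM. The same choice moved the share called higher within dcp2-ideg to 88.7%, against 53.9% with TMM, and within lsm1-ideg to 84.2%, against 60.6%. No called direction of the 8 genes turned under it. Of the 7 calls beyond wt, that of URA2 was lost (-0.59, adjusted p = 0.136).

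URA2, the feedback-inhibited entry enzyme, had 189, 243, 194 and 93.4 CPM in dcp2-ideg T60, against 496, 533, 461 and 184 CPM in dcp2-ideg T0. The replicate 4 library of T0 lay inside the range of the T60 libraries, and the other 3 lay far above it. Each T60 library lay below the T0 library of its own number, also in replicate 4 (93.4 against 184 CPM). In wt its levels were 360 to 457 CPM at T60 and 438 to 502 CPM at T0. Beyond wt URA2 changed by -1.07 ± 0.329 (adjusted p = 0.0134), or, without the replicate 4 libraries, by -1.10 (adjusted p = 1.39e-06).

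URA4 and URA1, both higher than wt at T0, fell in dcp2-ideg to about the wt level or below it. URA4 had 205, 133, 158 and 197 CPM in dcp2-ideg T60 against wt T60 values of 229, 204, 234 and 269 CPM. URA1 had 655, 524, 567 and 776 CPM in dcp2-ideg T60 against 797, 756, 700 and 1040 CPM in wt T60. For both genes the ranges of dcp2-ideg T60 and wt T60 overlapped narrowly, a difference that was not tested, and all dcp2-ideg T60 libraries lay below all dcp2-ideg T0 libraries. The changes beyond wt were -1.29 ± 0.201 for URA4 (adjusted p = 2.2e-05) and -1.51 ± 0.214 for URA1 (adjusted p = 6.95e-06).

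URA3 had 7.03, 5.04, 5.52 and 4.69 CPM in dcp2-ideg T60, below all dcp2-ideg T0 libraries (12.4 to 31.4 CPM). Its level in dcp2-ideg T60 was still above the 0.278 to 0.502 CPM of wt T60. Within the strain the change was -2.21 ± 0.233 (adjusted p = 2.47e-08). Beyond wt it was -1.87 ± 0.408 (adjusted p = 0.000833), with a wide error because the wt change rests on 12 to 33 counts a library.

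FUR4, the uracil permease gene, had 13.7, 17.4, 14.4 and 13.2 CPM in dcp2-ideg T60, against 38, 47.7, 41.1 and 30.8 CPM in dcp2-ideg T0. Its wt levels were 37.4 to 53 CPM at T60 and 44.5 to 52.7 CPM at T0. The dcp2-ideg T60 libraries lay below all others, with a change beyond wt of -1.32 ± 0.21 (adjusted p = 2.8e-05).

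The isozyme pair URA5 and URA10 moved in opposite directions. URA5 had 195, 209, 177 and 213 CPM in dcp2-ideg T60, against 375, 350, 349 and 434 CPM in dcp2-ideg T0, a change beyond wt of -1.02 ± 0.151 (adjusted p = 1.14e-05). URA10 had 44.8, 45.5, 42.8 and 62.9 CPM in dcp2-ideg T60, against 11.8, 11.3, 10.3 and 17.7 CPM in dcp2-ideg T0. All 4 dcp2-ideg T60 libraries exceeded the 20 others, in which URA10 was between 8.64 and 17.7 CPM. Its change beyond wt was 1.85 ± 0.231 (adjusted p = 1.21e-06), a 3.61-fold difference, and 1.91 without the replicate 4 libraries.

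Counted per base, URA10 made up 16.1%, 15.4%, 16.9% and 19.9% of the summed URA5 and URA10 in dcp2-ideg T60, against 2.57%, 2.63%, 2.42% and 3.3% in dcp2-ideg T0. The share averaged 3.57 ± 0.24% in lsm1-ideg T60 and 2.4 ± 0.229% in lsm1-ideg T0, and those 2 groups did not overlap. In wt it averaged 2.79 ± 0.214% at T60 and 2.79 ± 0.326% at T0 (SD, n = 4 each). The log2 ratio of URA10 to URA5 changed by 2.88 in dcp2-ideg, 0.59 in lsm1-ideg and 0.0034 in wt. A ratio within a library needs no library scaling, but it shows unequal change only, and it was chosen after the values were seen, so no test is given. The coding sequences of the pair are 68.3% identical over 693 aligned columns, with no shared run longer than 11 bases, so a longer read matches at most 1 of them exactly.

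**Figure D3:**
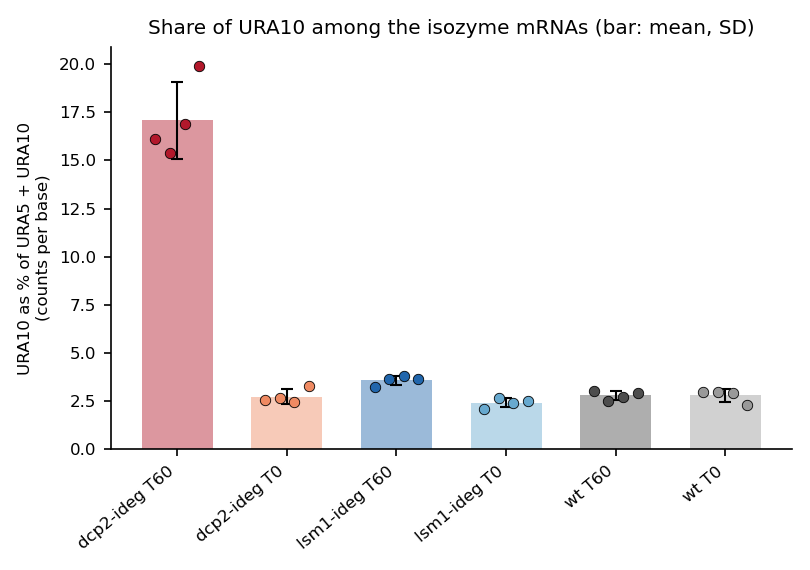
URA10 as a percentage of URA5 plus URA10 (counts per base, y axis) in each group; bars are means, error bars SD over 4 libraries, points libraries. The dcp2-ideg T60 libraries lie between 15.4% and 19.9%, and all others lie at or under 3.79%.

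PPR1, the regulator, showed no such change. It had 41.9, 52.8, 42.4 and 34.9 CPM in dcp2-ideg T60, against 42.5, 43.8, 40.9 and 38.5 CPM in dcp2-ideg T0. These groups overlapped, and group means over all 6 groups ran from 41.4 to 46.2 CPM. The change beyond wt was 0.11 ± 0.159 (adjusted p = 0.619, 95% interval -0.22 to 0.44), which is 0.040 relative to the median of all features. The median of protein-coding features was lower, at -0.18, so PPR1 stood further above that one. With total count scaling the PPR1 change was 0.60 (adjusted p = 0.0019) where the median of all features was 0.57, so that relative to that median it was 0.030. Within dcp2-ideg, PPR1 passed the test with a minimum of 10 CPM (0.28, adjusted p = 0.0215), with protein-coding features alone (0.27, adjusted p = 0.0288) and with total counts (0.59, adjusted p = 3.2e-05), against 0.053 ± 0.112 (adjusted p = 0.717) with all features and TMM.

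In lsm1-ideg none of the 8 mRNAs was called beyond wt, where 0.212% of all features were (25 by edgeR, 903 at an unadjusted p under 0.05, 101 by DESeq2). The largest was URA3 at -0.95 ± 0.405 (adjusted p = 0.568), where the wt change rests on 12 to 33 counts a library. The others lay between -0.38 (URA4) and 0.27 (URA10). The median of the 8 genes was -0.28, against 0.03 over all features. For PPR1 the value was 0.064 ± 0.159 (95% interval -0.26 to 0.39).

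Within lsm1-ideg, URA3 alone was called between T60 and T0, in a comparison with 1.85% of all features called. It had 14.7, 16, 11.7 and 17.1 CPM in lsm1-ideg T60, all below the 33.6 to 42.8 CPM of lsm1-ideg T0, a change of -1.29 ± 0.225 (adjusted p = 0.00175). Next were URA10 (0.36 ± 0.163), URA2 (-0.33 ± 0.233) and FUR4 (-0.33 ± 0.148), with adjusted p of 0.345, 0.585 and 0.33. When the libraries of this strain were fitted alone, URA2 was called as well (-0.33, adjusted p = 0.0228).

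The dcp2-ideg and lsm1-ideg changes were also compared with each other, a test in which wt cancels. Of the 8 genes 1 was called higher in this difference and 6 lower, against 28.5% of all features called. URA10 was higher by 1.58 ± 0.231 (adjusted p = 1.59e-05), while URA1 (-1.15 ± 0.214), FUR4 (-1.09 ± 0.21), URA4 (-0.91 ± 0.201) and URA5 (-0.70 ± 0.151) were lower, with adjusted p of 0.00139 or less. URA3 (-0.92 ± 0.316, adjusted p = 0.03) and URA2 (-0.88 ± 0.329, adjusted p = 0.0458) were called with less margin. PPR1 differed by 0.049 ± 0.159 (adjusted p = 0.856). With total counts the median of all features moved to 0.45, 91% of the called features were higher, against 53.3% with TMM, and 4 of the 8 genes were called, URA10 (2.05) and PPR1 (0.49) higher and URA1 (-0.69) and FUR4 (-0.65) lower.

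The URA2 and URA3 calls of that difference hung on single libraries and on the features tested. With a minimum of 10 CPM or with protein-coding features alone neither was called (adjusted p = 0.0597 to 0.0914), and URA2 was not called when only the groups compared were fitted (adjusted p = 0.0939). URA2 kept its call only without dcp2-ideg T60 replicate 2, dcp2-ideg T0 replicate 4 or lsm1-ideg T60 replicate 3, and leaving out any of the other 13 libraries gave an adjusted p of up to 0.108. URA3 lost its call without dcp2-ideg T60 replicates 2 or 4, dcp2-ideg T0 replicates 1, 2 or 3, lsm1-ideg T60 replicates 2 or 4, or lsm1-ideg T0 replicates 1 or 4, with an adjusted p of up to 0.0671. Both stayed lower in every case (-1.16 to -0.67 for URA2 and -1.18 to -0.83 for URA3). Without both replicate 4 libraries of dcp2-ideg the values were -0.91 (adjusted p = 2.53e-05) and -1.08 (adjusted p = 0.00103).

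**Figure D4:**
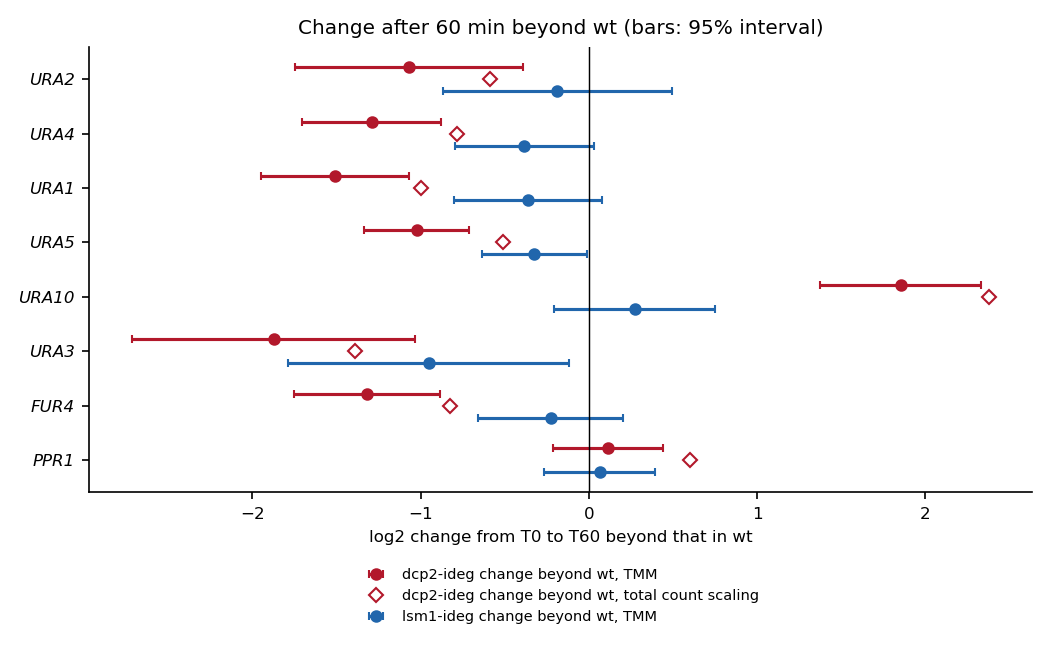
Log2 change between T60 and T0 beyond that in wt (x axis) of each gene in dcp2-ideg and in lsm1-ideg, with 95% intervals; open diamonds are the dcp2-ideg values under total count scaling. With TMM, dcp2-ideg values run from -1.87 (URA3) to -1.02 (URA5) for the 6 genes that fell and stand at 1.85 for URA10 and 0.11 for PPR1, and all diamonds lie to the right of the TMM points.

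Features that overlap the 8 genes were examined because antisense transcripts could share their reads. The library method marks the strand, but which strand option the counting used is not stated. The antisense feature XUT_2R-114 covers all 2169 bases of FUR4, yet had 86 to 619 counts a library, against 782 to 3396 for FUR4. Counting without regard to strand would give FUR4 reads to both features or to neither. The counts of this pair were thus kept apart by strand, and other pairs were not examined for this. URA10 holds XUT_13F-349, an Xrn1-sensitive unstable transcript, wholly inside it on the opposite strand. This transcript had a median of 38.4% of the URA10 count per base and averaged 11.1 ± 1.55 CPM in dcp2-ideg T60 and 3.29 ± 0.529 CPM in dcp2-ideg T0. Its change beyond wt, a comparison with 34.4% of all features called, was 1.87 ± 0.344 (adjusted p = 0.000148). That was close to the change of URA10, and the part of this transcript in the URA10 counts was not tested.

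Antisense transcripts of 2 genes that fell were called higher in the same comparison, where 34.4% of all features were called. XUT_10F-82, which overlaps 215 bases of URA2 on the other strand, rose by 2.59 ± 0.432 beyond wt (adjusted p = 4.96e-05). XUT_2R-114, which covers all 2169 bases of FUR4, rose by 0.94 ± 0.291 (adjusted p = 0.014) and averaged 7.9 ± 0.523 CPM in dcp2-ideg T60 and 2.99 ± 0.433 CPM in dcp2-ideg T0. The feature CUT_GIM_0143, wholly inside FUR4 on the opposite strand, was not called (0.82 ± 0.602, adjusted p = 0.309). The antisense neighbours of URA4 (RPN13, 0.16 ± 0.207, and XUT_12R-361, -0.71 ± 0.343) and of URA1 (OXP1, -0.023 ± 0.164) were not called either. PPR1 and URA3 overlapped no other feature of the table.

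A list of 20 other genes of pyrimidine metabolism was measured alongside, and all 20 were tested. Beyond wt, 12 fell in dcp2-ideg, 1 rose, and 7 did not pass the test, in a comparison with 34.4% of all features called. Their median was -0.62, against 0.07 over all features and -0.18 over protein-coding ones. The 4 with the smallest adjusted p were DUT1 (dUTP pyrophosphatase, -1.38 ± 0.181, adjusted p = 2.44e-06), FUI1 (uridine permease, -1.37 ± 0.194, 6.65e-06), FUR1 (uracil phosphoribosyltransferase, -0.90 ± 0.136, 1.35e-05) and URA7 (CTP synthase, -1.17 ± 0.203, 7.41e-05). FUI1 averaged 65.5 ± 12.8 CPM in dcp2-ideg T60, against 169 ± 28.8 CPM in dcp2-ideg T0. The gene that rose was CDD1, cytidine deaminase, by 0.96 ± 0.228 (adjusted p = 0.00187), with 23.6 ± 3.44 CPM in dcp2-ideg T60 and 12.7 ± 2.51 CPM in dcp2-ideg T0.

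In lsm1-ideg none of the 20 was called beyond wt, where 0.212% of all features were, and the median of the 20 was -0.12. Against the lsm1-ideg change, 2 of the 20 were called higher in dcp2-ideg and 10 lower, where 28.5% of all features were called. At T0, FUI1 was higher than wt in both dcp2-ideg (0.57 ± 0.137, adjusted p = 0.0438) and lsm1-ideg (0.74 ± 0.137, adjusted p = 0.00735). PHM8, a nucleotidase gene, was higher in dcp2-ideg (1.12 ± 0.273, adjusted p = 0.0487), and its value in lsm1-ideg was 0.46 ± 0.271 (adjusted p = 0.815). It had 30, 18.3, 23.8 and 51.5 CPM in dcp2-ideg T0, the last in replicate 4. The 20 genes were not examined without the replicate 4 libraries.

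**Figure D5:**
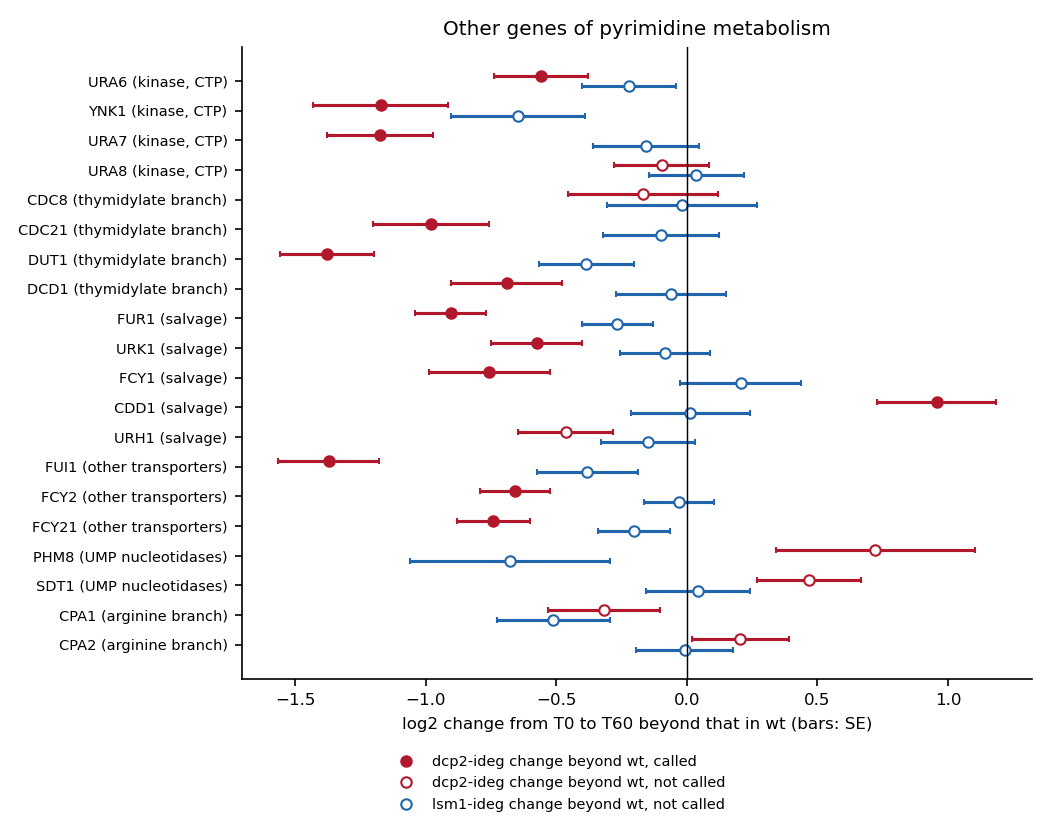
Log2 change between T60 and T0 beyond that in wt (x axis, bars are SE) of 20 other genes of pyrimidine metabolism in dcp2-ideg and lsm1-ideg; filled points passed an adjusted p of 0.05. In dcp2-ideg, where 34.4% of all features were called, 12 filled points lie below 0 and CDD1 above it. In lsm1-ideg, where 0.212% were called, no point is filled.

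The patterns over the 24 libraries were compared by the root-mean-square difference of centred log2 CPM, a description in which smaller means more alike. URA1 and URA4 were each other's nearest of 5104 protein-coding features, at 0.147, followed by RIB4 (0.225) for URA1 and by IMD2 for both (0.236 and 0.204). By the same measure URA10 lay nearest to YMR090W (0.166), PPT2 (0.193) and ALD3 (0.199), and FUR4 to GIC2 (0.176), GUA1 (0.185) and GAS1 (0.188). URA2 was nearest to GDA1 (0.132), ERB1 and SAH1, URA5 to CDC42 (0.088), ERP2 and VMA3, and PPR1 to FAP1 (0.0938), EMP65 and BUD14. URA3 had no close neighbour, its nearest being HPF1 at 2.09. Among the 8 genes the other pairs lay at 0.324 (URA2 and FUR4) or more, and all pairs share libraries and scaling.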

How the data were processed

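Per the labels' protocols, poly(A) RNA was purified on oligo-dT beads after hot phenol extraction, and dUTP libraries kept the strand. The values are the authors' raw counts of each feature, deposited without normalization. STAR, featureCounts and the sacCer3 build are named in the submitters' processing notes; versions, strand setting and handling of overlaps are not given in the sources used here. Of the positive counts of protein-coding features 59.6% were even. Among the 8 genes this ran from 8 of 24 counts (URA4) to 23 of 24 (URA2). Both mates of a fragment may thus each add to a count, which was not settled. As a check of the build, 5387 of 5779 RefSeq R64 genes (93.2%) fell within their own feature.

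All 24 libraries were fitted in 1 edgeR 4.0.16 quasi-likelihood model (R 4.3.3) with a mean per group, TMM factors and filterByExpr, and p-values were adjusted by Benjamini and Hochberg over 11776 features. Errors of log2 values are SE. There were 9 comparisons, several of which share libraries. Alternatives were other scalings, filters and feature sets, a replicate block, DESeq2 1.42.0, smaller fits and leaving out libraries. Groups came from sample titles. All 8 genes were named; of the 20 listed genes, at most the 4 with the smallest adjusted p in each direction were named in 4 of the comparisons. The genes, lists and neighbours' rule were chosen with earlier results of these data known. Within groups, pairs of libraries differed by 17.9 to 594 chi-square units per degree of freedom, so that no 2 were merged as 1 sample; this does not show that they were separate cultures. Replicate numbers came from the sample titles. Libraries of dcp2-ideg T60 and T0 with the same number deviated together (correlations 0.295, 0.152, 0.162 and 0.632), so the numbers were taken to pair these 2 groups. In the other 14 pairs of groups at least 1 correlation was under 0.1, which leaves weaker pairing there undecided. The main model holds no term for the replicate number. Adjusted p-values are edgeR's unless DESeq2 is named.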

Additional observations from a re-analysis of the deposited data

Results flagged for a closer look

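Single libraries lay far from the other 3 of their group, by Dixon's criterion for 4 samples, in 8 of the 48 combinations of a gene and a group. Chance alone marks about 1 in 20 such groups. In dcp2-ideg T0 replicate 4 this held for URA4 (521 CPM), URA1 (2180 CPM) and URA3 (12.4 CPM), and in dcp2-ideg T60 replicate 4 for URA10 (62.9 CPM). The other 4 were URA10 in lsm1-ideg T60 replicate 4 (12.5 CPM), URA3 in lsm1-ideg T0 replicate 3 (42.8 CPM), URA1 in wt T0 replicate 2 (830 CPM) and PPR1 in wt T0 replicate 4 (52.1 CPM).

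The change after the addition differed between strains in 7 genes, by edgeR's test of the difference itself. Such calls were common, at 34.4% of all features for dcp2-ideg beyond wt and 28.5% for dcp2-ideg against lsm1-ideg. In dcp2-ideg beyond wt the log2 values were -1.07 for URA2, -1.29 for URA4, -1.51 for URA1, -1.02 for URA5, 1.85 for URA10, -1.87 for URA3 and -1.32 for FUR4. Between dcp2-ideg and lsm1-ideg they were -0.88 for URA2, -0.91 for URA4, -1.15 for URA1, -0.70 for URA5, 1.58 for URA10, -0.92 for URA3 and -1.09 for FUR4.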

How the results depend on the processing

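Under 8 other settings of scaling, filter, features and fit, 551 values kept their direction and their side of the threshold, 11 lost a call, 6 gained one and 8 turned. Counts of the 8 genes called moved past 1.5 times in 2 cases, to 4 with total count scaling for the dcp2-ideg change minus that of lsm1-ideg (7 with TMM), and to 2 for lsm1-ideg T60 against T0 when only the groups compared were fitted (1 with all). With total counts URA4 and URA5 lost their calls there (-0.45, adjusted p = 0.0842, and -0.24, adjusted p = 0.257), as did URA3 (-0.48) and URA2 (-0.45), and PPR1 was called (0.49). The cause was not tested.

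None of the values that turned was called with the main settings or under the setting that turned it. PPR1 in dcp2-ideg T60 against T0 was -0.0053 with DESeq2 size factors and with DESeq2's own test, and -0.0037 with only the groups compared. In lsm1-ideg T60 against T0 it was -0.0058 and -0.0057 with these DESeq2 settings. URA5 in dcp2-ideg against lsm1-ideg at T0 was 0.031 with a minimum of 10 CPM, 0.021 with protein-coding features alone and 0.0046 with total counts. Without both dcp2-ideg replicate 4 libraries, URA2 (0.11) and URA10 (-0.086) turned against wt at T0, and URA2 (0.0031), URA4 (-0.13), URA1 (-0.086) and FUR4 (0.035) against lsm1-ideg at T0.

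Leaving out 1 library left 723 values on their side, lost 22 calls (URA2 and URA3 in the dcp2-ideg change minus the lsm1-ideg change) and turned 23 uncalled values. Ranges for PPR1 were -0.014 to 0.20 (dcp2-ideg beyond wt), -0.0052 to 0.11 (lsm1-ideg beyond wt), -0.084 to 0.14 (dcp2-ideg minus lsm1-ideg), -0.068 to 0.14 (dcp2-ideg T60 against T0), -0.03 to 0.057 (lsm1-ideg) and -0.096 to 0.021 (wt). URA10 ranged between -0.047 and 0.16 in wt T60 against T0 and between -0.087 and 0.17 in dcp2-ideg against wt at T0, where URA2 ranged between -0.28 and 0.11. Between the degron strains at T0 the ranges were -0.39 to 0.0081 for URA2, -0.19 to 0.04 for FUR4, -0.081 to 0.18 for URA1, -0.13 to 0.097 for URA4 and -0.078 to 0.015 for URA5.

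Only for dcp2-ideg T60 with dcp2-ideg T0 did every same-number correlation exceed 0.1. Those of lsm1-ideg T60 with T0 were 0.152, 0.12, 0.0665 and 0.143, so weaker pairing there is undecided. Over all pairs of groups, same-number correlations of deviations ran from -0.31 to 0.63, 15 of 60 exceeded 0.1, and 16 of 24 libraries lay closest to one of their own number. With a replicate block no call of the 8 genes changed (7 within dcp2-ideg and beyond wt, 0 in lsm1-ideg beyond wt), 6347 features were called between dcp2-ideg T60 and T0 (6102 without), and features called beyond wt numbered 4348 in dcp2-ideg (4048 without) and 57 in lsm1-ideg (25 without).

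Counts over all features moved past 1.5 times elsewhere too. With a 10 CPM minimum and with protein-coding features alone, which test fewer features, calls were 2486 and 2220 for dcp2-ideg beyond wt, 41 and 39 for lsm1-ideg (25), 2058 and 1776 for their difference (3361), 3391 and 3202 for dcp2-ideg T60 against T0 (6102), 49 and 59 for dcp2-ideg against wt at T0 (97), and 14 and 16 between the degron strains (27). DESeq2 called 101 for lsm1-ideg beyond wt, 431 for lsm1-ideg T60 against T0 (218), 153 and 81 for dcp2-ideg and lsm1-ideg against wt at T0 (97 and 41), and 49 between the degron strains. With only the groups compared, lsm1-ideg gave 55 beyond wt and 1034 for T60 against T0, dcp2-ideg against wt at T0 gave 25, and the degron strains differed in 15; the block gave 47 there. URA3 in wt rests on 12 to 33 counts a library, although the wt libraries held 44.4 to 83.9 M counts.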
